A study of Mus musculus with 15 samples.

Results

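The genes described here are 10 components of the Notch pathway: the receptors Notch1, Notch2, Notch3 and Notch4, the ligands Dll1, Dll3, Jag1 and Jag2, the glycosyltransferase Lfng and the DNA-binding factor Rbpj. They were taken by gene symbol from count tables that list 26263 named genes, and all 10 were found and passed the filter on low counts. Their RNA was measured in 15 libraries of mouse neural stem and progenitor cells from the dorsal telencephalon of embryos at E12.5 (E, embryonic day), grown as floating neurospheres with EGF and FGF. Wild-type C57Bl/6 cells (WT_B6, n = 3) were compared with Kat6b knockout cells of that background (KO_B6, n = 4), and wild-type FvB/BalbC cells (WT_FvB, n = 2) with cells carrying a Kat6b transgene on that mixed background (Tg_FvB, n = 6). KAT6B is a histone acetyltransferase, and the series asks how its loss and its gain alter gene expression in these cells. The mixed background was used, per the series' design text, because the transgenic line did not survive inbred. Neither the missing part of the knockout allele nor the promoter of the transgene is named in the labels.

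Notch receptors are single-pass membrane proteins that bind ligands of the Delta and Jagged families on a neighbouring cell. Ligand binding exposes the receptor to an ADAM protease and then to gamma-secretase, and the released intracellular domain enters the nucleus, joins RBPJ on DNA and recruits Mastermind coactivators to genes such as Hes1, Hes5 and Hey1. In the embryonic forebrain this signalling is known for keeping radial glia and other neural progenitors undifferentiated, while cells with high proneural factor activity display Dll1 to their neighbours.

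Kat6b itself, the check of the labels, had 84.2 ± 0.778 CPM (counts scaled to the library total, with TMM factors; mean ± SD over libraries) in WT_B6 and 63.4 ± 2.22 in KO_B6, and 53.1 ± 1.80 in WT_FvB against 242.8 ± 54.2 in Tg_FvB. In the knockout the difference was not called (log2 fold change -0.41 ± 0.17, edgeR adjusted p = 0.0571), although every KO_B6 library was below every WT_B6 library. These counts pool all exons of Kat6b, so a missing exon and less transcript cannot be told apart in them. Titles of the Tg_FvB samples read as knockouts whereas their genotype field says Kat6b Tg, and replicates 5 and 6 have a wild-type column header; the genotype field was followed, and values without these libraries are given where they matter. Several libraries of 1 group were near-identical, with a biological coefficient of variation (BCV) under 0.05 between them: all 3 WT_B6, KO_B6 replicates 2 and 3, both WT_FvB, and Tg_FvB replicates 1 to 3 through replicate 2. Their counts still differed by more than sampling noise, but p-values that treat them as separate samples measure a spread that may be technical. Totals ran from 12336303 to 62819028 counts per library, and every KO_B6 library was deeper than every WT_B6 library. The leading principal component (48.9% of variance) ran from the B6 to the FvB libraries, with Tg_FvB replicates 5 and 6 between them at -0.11 and 3.04. By their labels, WT_B6 replicate 1 and WT_FvB replicate 2 are both embryo 5 of litter 844, although their backgrounds differ. The neural stem cell label was met by its markers in every group, with Sox2 at 349 to 714 CPM and Nes at 689 CPM or more.

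Loss of Kat6b went with less RNA of 3 receptors and both Delta-like ligands and with more RNA of Jag1 and Lfng. By the quasi-likelihood test of edgeR, adjusted by Benjamini-Hochberg over 15261 genes, 2 of the 10 genes were higher in KO_B6 and 5 lower at an adjusted p under 0.05. Over all genes tested 45.8% were called in this comparison, 24.8% higher and 20.9% lower. The median log2 fold change of the 10 genes was -0.39, beside 0.02 over all genes tested. Groups did not overlap for 8 of the 10, and neither did they for 56.3% of all genes tested. When near-identical libraries were summed into 1 profile each, which left 9 profiles, 0 of the 10 genes were called by edgeR. In that fit 4 had an unadjusted p under 0.05, and 10 of 10 kept their direction. Over all 15958 genes of that fit, 5 were called and 21.7% had an unadjusted p under 0.05. DESeq2 on all libraries called 2 higher and 6 lower. Bulk RNA cannot tell fewer cells of a type apart from less RNA per cell.

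**Figure D1:**
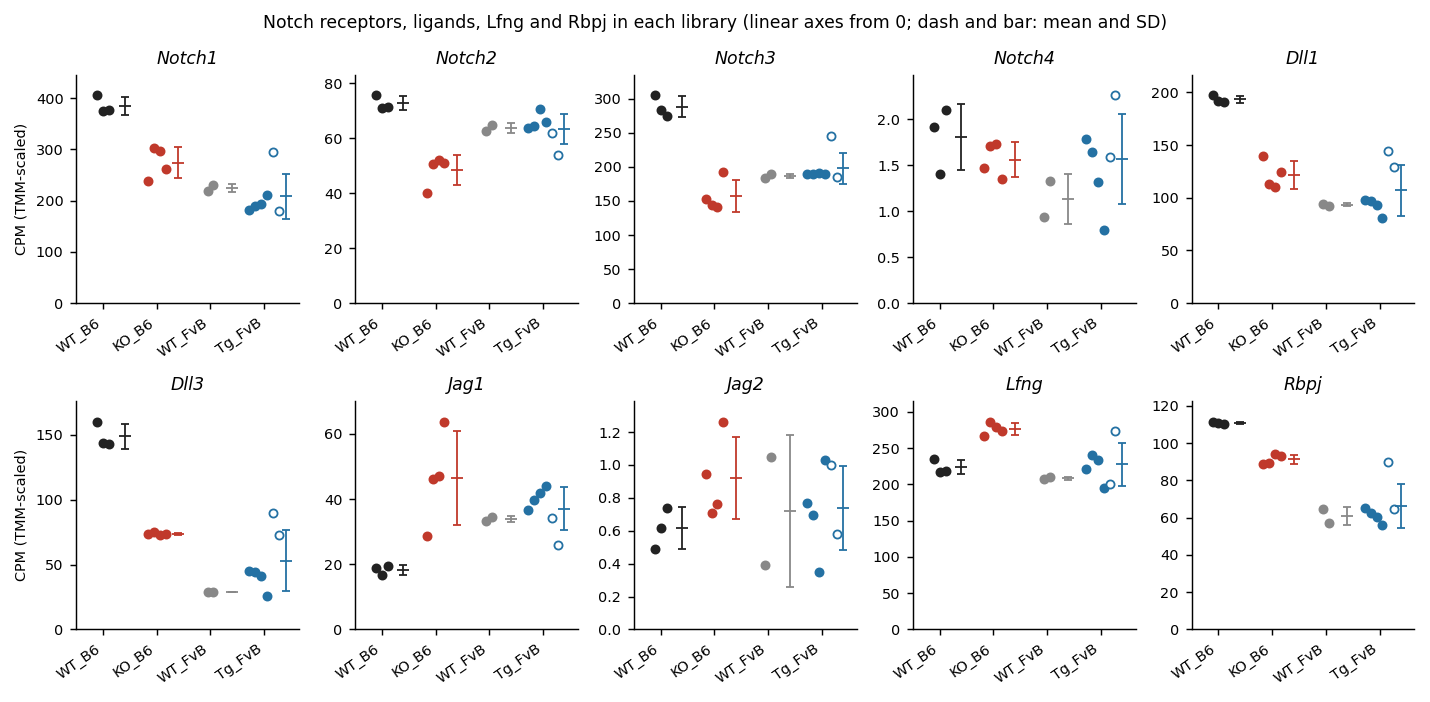
Level of each of the 10 genes in every library, in CPM scaled by TMM on linear axes that start at 0; each point is 1 library, open points are Tg_FvB replicates 5 and 6, and the dash and bar beside each group are its mean and SD. Notch1, Notch2, Notch3, Dll1, Dll3 and Rbpj are lower in all 4 KO_B6 libraries than in all 3 WT_B6 libraries, and Jag1 and Lfng are higher.

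Among the receptors, Notch3 differed most. Notch3, a receptor of ventricular zone progenitors and of vascular mural cells, had 305, 284 and 275 CPM in WT_B6 and 152, 144, 141 and 193 CPM in KO_B6. The lowest wild-type library was therefore well above the highest knockout library, and the mean in KO_B6 was 54.7% of that in WT_B6. The log2 fold change was -0.87 ± 0.11 (SE; edgeR adjusted p = 3.38e-05; 0.108 with near-identical libraries summed).

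Notch1, the main receptor of embryonic neural progenitors, had 405, 374 and 376 CPM in WT_B6 and 238, 302, 296 and 261 CPM in KO_B6, a log2 fold change of -0.49 ± 0.14 (edgeR adjusted p = 0.0104; 0.237 summed). The KO_B6 values spread more widely than those of WT_B6, and the groups stayed apart. Notch2, which is expressed beside Notch1 in radial glia, had 75.7, 71.0 and 71.6 CPM in WT_B6 and 40.2, 50.5, 52.1 and 51.2 CPM in KO_B6. KO_B6 replicate 1 was the lowest of the Notch2 values, and the log2 fold change was -0.58 ± 0.09 (edgeR adjusted p = 1.59e-04; 0.111 summed). Notch4, best known from endothelium, was the scarcest receptor, with 1.80 ± 0.359 CPM in WT_B6 and 1.56 ± 0.186 CPM in KO_B6, overlapping groups and no call (log2 fold change -0.20 ± 0.25, edgeR adjusted p = 0.533).

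Parts of 3 receptor genes lie under other annotated genes of the mouse assembly GRCm38.p6. Notch1 (gene identifier 18128, chromosome 2, 26457902 to 26503822) shares 1489 bases with the long non-coding RNA gene 0610009E02Rik. Notch3 (18131, chromosome 17, 32120820 to 32166896) shares 10673 bases with Gm38585 and 3142 with Gm41568, and Notch2 (18129, chromosome 3, 98013538 to 98150367) shares 3803 with Gm40103. Whether the counting used strand is not given in the sources used here, so reads of these genes and of their overlapping neighbours may not have been told apart.

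The ligands moved in opposite directions. Dll3, a divergent Delta ligand known for acting inside the cell rather than activating receptors on neighbours, had 160.3, 144 and 143 CPM in WT_B6 and 73.9, 75.0, 72.9 and 73.7 CPM in KO_B6. The 4 knockout libraries thus lay within a narrow band, and their mean was 49.6% of that in WT_B6. Its log2 fold change was -1.01 ± 0.27 (edgeR adjusted p = 0.00738; 0.264 summed). Dll1, the Delta ligand of differentiating neural cells, had 197, 192 and 191 CPM in WT_B6 against 139, 113, 110.3 and 125 CPM in KO_B6, with a log2 fold change of -0.67 ± 0.15 (edgeR adjusted p = 0.00243; 0.213 summed). KO_B6 replicate 1 had the most Dll1 of the 4 knockout libraries and still less than any wild-type library.

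Jag1, a Jagged ligand found in forebrain progenitors and in vessels, was the member with the largest rise. It had 18.9, 16.6 and 19.5 CPM in WT_B6 and 28.7, 46.2, 47.1 and 63.8 CPM in KO_B6. The knockout libraries spread widely, yet the lowest, replicate 1, exceeded the highest wild-type library. Jag1 rose 2.54-fold (log2 fold change 1.34 ± 0.22, edgeR adjusted p = 2.09e-04; 0.148 summed). Jag2 was counted only 8 to 79 times per library, its groups overlapped at 0.617 ± 0.125 CPM in WT_B6 and 0.920 ± 0.250 CPM in KO_B6, and it was not called (edgeR adjusted p = 0.217).

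Lfng, which adds N-acetylglucosamine to O-fucose on Notch receptors and thereby shifts their preference from Jagged towards Delta ligands, had 235, 218 and 218 CPM in WT_B6 and 266, 286, 279 and 274 CPM in KO_B6. All knockout libraries were above all wild-type libraries by a small margin, a log2 fold change of 0.31 ± 0.09 (edgeR adjusted p = 0.0142; 0.441 summed). Leaving out WT_B6 replicate 2, WT_B6 replicate 4 or KO_B6 replicate 2 ended that call (edgeR adjusted p = 0.0762, 0.0739 and 0.0512). Rbpj, the transcription factor through which all 4 receptors act on DNA, had 111, 111 and 110.1 CPM in WT_B6 and 88.7, 89.4, 94.0 and 92.9 CPM in KO_B6. The groups stood apart, but the log2 fold change of -0.28 ± 0.12 was not called (edgeR adjusted p = 0.0578). It was called in 10 of 23 alternatives, among them DESeq2 (adjusted p = 0.0288) and the fit without Tg_FvB replicates 5 and 6 (edgeR adjusted p = 2.81e-04). Others were those without WT_FvB replicate 1 or 2 or Tg_FvB replicate 4, 5 or 6 alone (edgeR adjusted p from 4.85e-04 to 0.0478). Rbpj was not called with near-identical libraries summed (edgeR adjusted p = 0.42) or with litter as a covariate (edgeR adjusted p = 0.155).

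Litters 843 and 929 each held 1 WT_B6 and 2 KO_B6 libraries, and both showed the pattern. In each of them both knockout libraries were below the wild type for Notch1, Notch2, Notch3, Dll1, Dll3 and Rbpj and above it for Jag1, Jag2 and Lfng. The log2 ratio of Dll3 was -0.95 in litter 843 and -0.96 in litter 929. For Notch3 it was -0.94 and -0.72, and for Jag1 1.17 and 1.51. Notch4 went opposite ways in the 2 litters. With 1 wild type per litter these ratios have no test of their own. Near-identical libraries also crossed the 2 litters: the 2 wild types (BCV 0.0172) and KO_B6 replicates 2 and 3 (BCV 0.0268). The litters are therefore not separate evidence for the pattern.

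Gene length was used to set members beside each other, as mean CPM per kilobase. In WT_B6 the order of levels was Lfng (97.9), Dll3 (68.8), Dll1 (56.4), Notch1 (40.6), Notch3 (36.3), Rbpj (19.4), Notch2 (6.92), Jag1 (3.34), Notch4 (0.273) and Jag2 (0.152), and no 2 neighbours in that order overlapped in range. In KO_B6 Dll1 (35.5) and Dll3 (34.2) overlapped, and Jag1 (8.45) stood above Notch2 (4.62). Lfng remained first in KO_B6 at 121 CPM per kilobase.

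The ligand pool changed in size and make-up. Summed over the 4 ligands, it was 129 ± 5.58 CPM per kilobase in WT_B6 and 78.4 ± 3.59 in KO_B6. Jag1 made up 2.41% to 2.83% of it in WT_B6 and 6.50% to 14.1% in KO_B6, while the mean share of Dll3 was 53.4% in WT_B6 and 43.7% in KO_B6. The receptor pool was 84.1 ± 3.95 CPM per kilobase in WT_B6 and 53.6 ± 3.67 in KO_B6. Within it the mean share of Notch3 was 43.2% in WT_B6 and 37.0% in KO_B6, and that of Notch1 48.3% and 53.9%. These shares are descriptions of RNA, with no test.

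**Figure D2:**
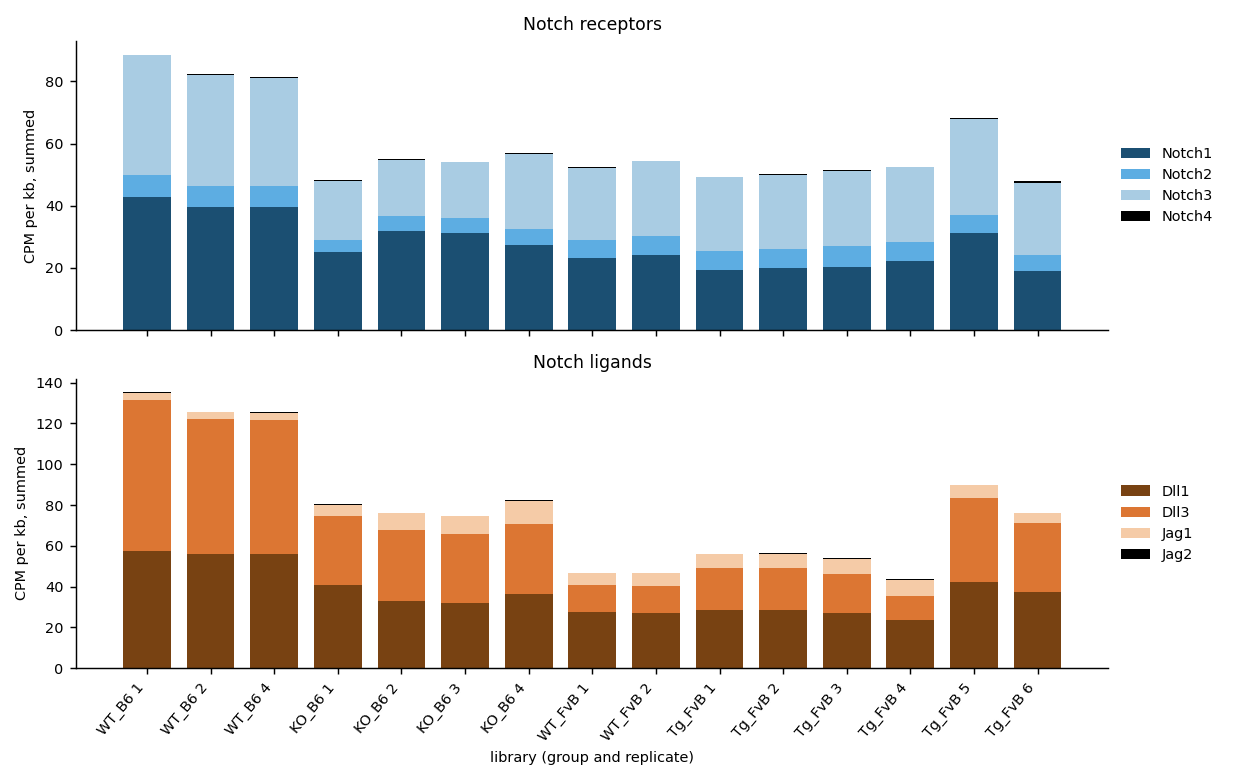
Receptors (upper panel) and ligands (lower panel) stacked in each of the 15 libraries, in CPM per kilobase of gene length on axes from 0. The 3 WT_B6 bars are the tallest in both panels, and the pale Jag1 segment is a larger share of the ligands in KO_B6 (6.50% to 14.1%) than in WT_B6 (2.41% to 2.83%).

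The transgene left all 10 genes without a call. Against WT_FvB, edgeR's quasi-likelihood test called 0 of the 10, and DESeq2 called 0. Over all genes tested edgeR called 1.85%, 0.688% higher and 1.17% lower. Groups of no member stood apart, which was so for 16.0% of all genes tested. The median log2 fold change of the 10 genes was 0.12. Kat6b, by contrast, was 4.57-fold higher in Tg_FvB (edgeR adjusted p = 2.38e-04).

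Dll3 came nearest to a call. It had 28.6 CPM in both WT_FvB libraries and 44.8, 44.5, 41.2, 25.4, 89.5 and 72.9 CPM in Tg_FvB replicates 1 to 6. Tg_FvB replicate 4, the shallowest library, was below both wild types, the other 5 were above them, and replicates 5 and 6 were the highest. The log2 fold change was 0.90 ± 0.32 (edgeR unadjusted p = 0.0137, adjusted p = 0.158). Without replicates 5 and 6 it was 0.45 (adjusted p = 0.135), and without replicate 4 alone it was 1.04 and was called (adjusted p = 0.0187). Within litter 844, which holds both WT_FvB libraries and Tg_FvB replicates 1 and 2, the log2 ratio was 0.64. Each of these pairs was near-identical (BCV 0.0315 and 0.0414), so its libraries are not separate evidence.

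Notch1 had 219 and 230.0 CPM in WT_FvB and 183, 190, 193, 210.3, 296 and 181 CPM in Tg_FvB replicates 1 to 6. Only replicate 5 of these was above the wild types, and the log2 fold change was -0.11 ± 0.15 (edgeR adjusted p = 0.737). Without replicate 5 it was -0.24 (adjusted p = 0.122), and without replicates 5 and 6 it was -0.22 (adjusted p = 0.178), neither called. Within litter 844 both transgenic libraries were below both wild types, with a log2 ratio of -0.27. Both pairs were near-identical there, so their libraries are not separate evidence. Notch3 stood at 184 and 189 CPM in WT_FvB and between 185 and 191 CPM in 5 of 6 Tg_FvB libraries, with replicate 5 at 245 CPM. Jag1 had 33.2 and 34.6 CPM in WT_FvB and a range from 25.8 to 44.1 CPM around a median of 38.3 in Tg_FvB (log2 fold change 0.13, edgeR adjusted p = 0.799). The other 6 members had log2 fold changes from -0.02 for Jag2 to 0.51 for Notch4. A missed threshold with 2 wild-type libraries does not show that these genes were at the same level.

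The 2 effects were then compared in 1 model as the effect of the knockout minus that of the transgene. This difference was called for 5 of the 10 genes, 1 higher and 4 lower, where 37.3% of all genes tested were called, 19.5% higher and 17.8% lower. It was -1.91 ± 0.43 on the log2 scale for Dll3 (edgeR adjusted p = 0.0034), -0.96 ± 0.16 for Notch3 (7.2e-04), -0.87 ± 0.23 for Dll1 (0.00882), -0.57 ± 0.14 for Notch2 (0.00488) and 1.22 ± 0.31 for Jag1 (0.00684). Notch1, Notch4, Jag2, Lfng and Rbpj were not called (edgeR adjusted p from 0.076 to 0.429). Leaving out Tg_FvB replicate 4 or 5 added a call for Rbpj (edgeR adjusted p = 0.0351 and 0.0101). With litter as a covariate the calls of Dll1 and Dll3 were lost (edgeR adjusted p = 0.0947 and 0.0517). With near-identical libraries summed edgeR called 0 of the members, with 4 at an unadjusted p under 0.05, beside 17.6% of all genes. Each effect was measured on its own background, so genotype and background cannot be told apart in this difference.

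**Figure D3:**
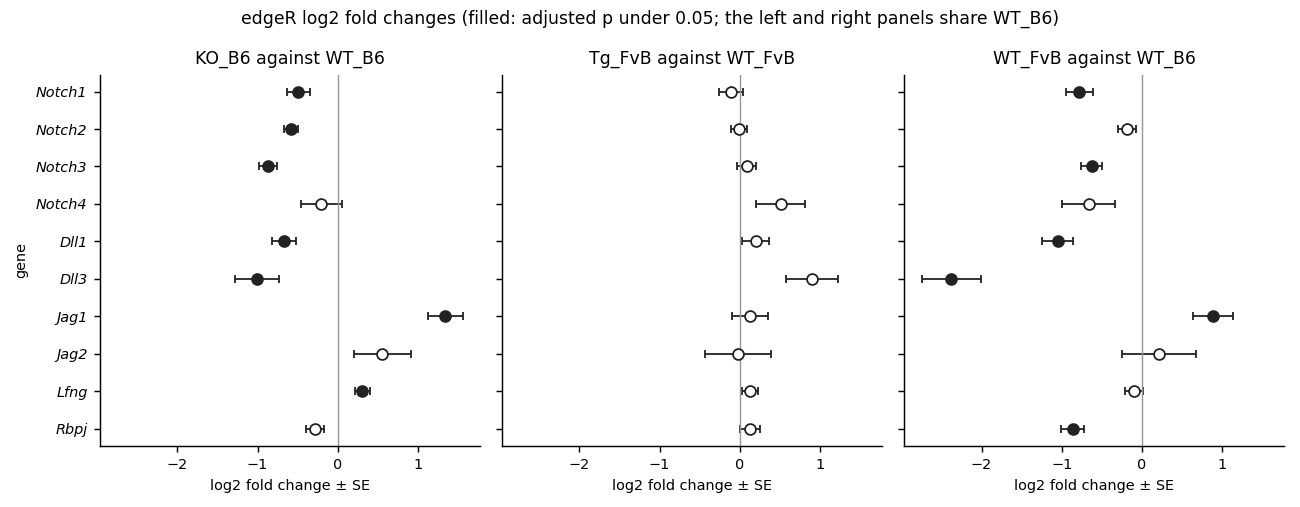
Log2 fold change ± SE of each of the 10 genes from edgeR in KO_B6 against WT_B6 (left), Tg_FvB against WT_FvB (middle) and WT_FvB against WT_B6 (right); filled points have an adjusted p under 0.05, and the left and right panels share the WT_B6 libraries. No point is filled in the middle panel, and 7 and 6 are filled in the left and right panels.

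The 2 wild types themselves differed in 6 of the 10 genes, 1 higher and 5 lower in WT_FvB, where 48.9% of all genes tested were called, 25.4% higher and 23.5% lower. Groups did not overlap for 9 of the 10, as for 78.3% of all genes tested. Dll3 was the furthest apart, at 28.6 ± 0.0431 CPM in WT_FvB and 149 ± 9.91 CPM in WT_B6 (log2 fold change -2.38 ± 0.37, edgeR adjusted p = 2.1e-04). Dll1 (-1.05), Rbpj (-0.86), Notch1 (-0.78) and Notch3 (-0.63) were lower in WT_FvB as well, and Jag1 was higher (0.89). Notch2, Notch4, Jag2 and Lfng were not called. A fit of only these 2 groups called 9, adding Notch2, Notch4 and Lfng, all lower (edgeR adjusted p = 8.41e-04, 0.0273 and 0.0146). Calls rose over all genes as well in that fit, to 10350 of 14351 genes from 7456 of 15261. This comparison shares the WT_B6 libraries with the knockout comparison. The log2 fold changes against WT_B6 stood side by side at -1.01 in KO_B6 and -2.38 in WT_FvB for Dll3, at 1.34 and 0.89 for Jag1, and at -0.58 and -0.19 for Notch2. For Lfng they were 0.31 and -0.10. Without WT_FvB replicate 2 the call of Jag1 was lost (edgeR adjusted p = 0.0597). With litter as a covariate only Dll3 was called. Litter was nested within background in that fit, so its wild-type contrast depends on which litters the coding takes as reference. The FvB/BalbC reference, litter 873, holds no WT_FvB library, so the fit cannot show how litter bears on this difference. With near-identical libraries summed edgeR called 0, with 5 of the 10 at an unadjusted p under 0.05, beside 23.2% of all genes.

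Per kilobase, Dll1 (27.2) and not Dll3 (13.2) was the most abundant ligand in WT_FvB, and Notch1 (23.7) and Notch3 (23.5) overlapped. The ligand pool was 46.8 ± 0.0527 CPM per kilobase in WT_FvB and 62.7 ± 17.0 in Tg_FvB. Jag1 averaged 13.2% of it in WT_FvB and ran from 6.16% to 18.4% in Tg_FvB. The receptor pool was 53.4 ± 1.45 in WT_FvB and 53.2 ± 7.45 in Tg_FvB, close to the 53.6 of KO_B6.

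Beyond the 10 genes, 69 of 73 other genes of the pathway passed the filter. In KO_B6 12 of them were higher and 19 lower than in WT_B6, with a median log2 fold change of -0.09. Of all genes tested 24.8% were called higher and 20.9% lower, 45.8% in all, so that the share called among these 69 genes was near that background. In Tg_FvB 1 was higher and 0 lower than in WT_FvB by edgeR and by DESeq2, where edgeR called 1.85% of all genes tested. The number called at an adjusted p under 0.05 was 0 without either WT_FvB library, 7 without Tg_FvB replicate 4 and 5 without Tg_FvB replicate 5. The list was chosen with results of these data known and is described by its counts only. With near-identical libraries summed, 70 of these genes were tested and edgeR called 0 in either comparison. In that fit 23 and 2 had an unadjusted p under 0.05, beside 21.7% and 2.95% of all genes.

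Of the 8 target genes, 1 was higher and 5 lower in KO_B6, with a median log2 fold change of -1.04, where the background was 24.8% higher and 20.9% lower. Hes5, the effector of Notch in radial glia, had 319, 286 and 293 CPM in WT_B6 and 125, 82.9, 81.9 and 89.3 CPM in KO_B6 (log2 fold change -1.66 ± 0.33, edgeR adjusted p = 0.001). Every knockout library was far below every wild type. Hes1, a related repressor, went the other way with 33.9, 31.8 and 34.3 CPM in WT_B6 and 63.1, 49.5, 51.2 and 46.2 CPM in KO_B6 (0.65 ± 0.13, edgeR adjusted p = 9.08e-04). Hey1 fell by 0.89 and Hey2 by 1.20 on the log2 scale, and Heyl and Hes7, both under 3 CPM, were lower too. Nrarp, a feedback inhibitor of the receptor, and Fabp7, a radial glial lipid carrier, were not called and their groups overlapped. In Tg_FvB none of the 8 was called by edgeR. Hes5 there had 71.3, 73.6, 72.9, 44.96, 180.5 and 131 CPM in replicates 1 to 6, against 53.9 and 60.9 CPM in WT_FvB.

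Of the 10 genes of receptor and ligand processing, 0 were higher and 3 lower in KO_B6, beside 24.8% and 20.9% of all genes tested. These were Furin, the convertase that cuts Notch in the Golgi (log2 fold change -0.49, edgeR adjusted p = 0.00117), and the gamma-secretase subunits Psen2 (-0.65) and Aph1c (-1.01). Aph1c has the close copy Aph1b, so its reads may have been split between them. Of 10 receptor glycosylation genes, 5 were higher and 1 lower, beside 24.8% and 20.9% of all genes tested. Kdelc1, also named Poglut2, and the xylosyltransferases Xxylt1 and Gxylt1 act on the O-glucose glycans of Notch and were higher by 0.59, 0.57 and 0.48. Kdelc2, also named Poglut3, was the other gene called higher, chosen for naming after its value was seen. The 2 Fringe relatives of Lfng parted: Rfng was higher by 0.21 (edgeR adjusted p = 0.0193), while Mfng, named after its value was seen, fell from 22.4 ± 1.30 to 9.21 ± 1.08 CPM (log2 fold change -1.28, edgeR adjusted p = 7.77e-06).

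Of 15 genes of ubiquitination and trafficking, 3 were higher and 6 lower in KO_B6, again beside 24.8% and 20.9% of all genes tested. The endocytic adaptor Epn2, which takes part in ligand internalization, rose from 238 ± 5.94 to 415 ± 30.5 CPM (log2 fold change 0.80, edgeR adjusted p = 1.09e-05), and its relative Epn1 fell by 0.15. The ubiquitin ligases Nedd4 and Dtx4 fell by 0.28 and 0.49. The others called, named after their values were seen, were Neurl1a and Fbxw7, which were higher, and Mib2, Numbl and Dtx1, which were lower. Of 15 nuclear cofactors, 2 were higher and 4 lower, a share near the 45.8% called over all genes tested. The Mastermind coactivator Maml2 fell by 0.49, the corepressors Ncor1 and Spen fell by 0.27 and 0.33, and the acetyltransferase Kat2a rose by 0.70 (edgeR adjusted p = 4.33e-04). The remaining calls, again named after their values were seen, were Rita1, higher, and Kdm5a, lower.

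Of the other ligands and ligand-like genes, 7 of 8 were tested and edgeR called 0 in KO_B6, while DESeq2 called 1 higher and 1 lower. Dll4, the Delta ligand of endothelium, stayed between 0.433 and 1.20 CPM in all libraries. Of 7 proneural factors, Neurog1, Neurog3 and Atoh1 did not pass the filter. Neurod1, a factor of committed neuronal precursors, was called higher in KO_B6 (edgeR adjusted p = 6.41e-04) and in Tg_FvB (edgeR adjusted p = 0.0392) on few reads. It had 2 to 4 counts per library in WT_B6 and 11 to 57 in KO_B6, and 1 count in each WT_FvB library against 5 to 27 in Tg_FvB, so no fold is given. The call in Tg_FvB was lost when WT_B6 replicate 1, 2 or 4, KO_B6 replicate 2 or 3, either WT_FvB library or Tg_FvB replicate 1, 2, 3 or 6 was left out. It was also lost with litter as a covariate, with only the groups compared and with near-identical libraries summed.

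**Figure D4:**
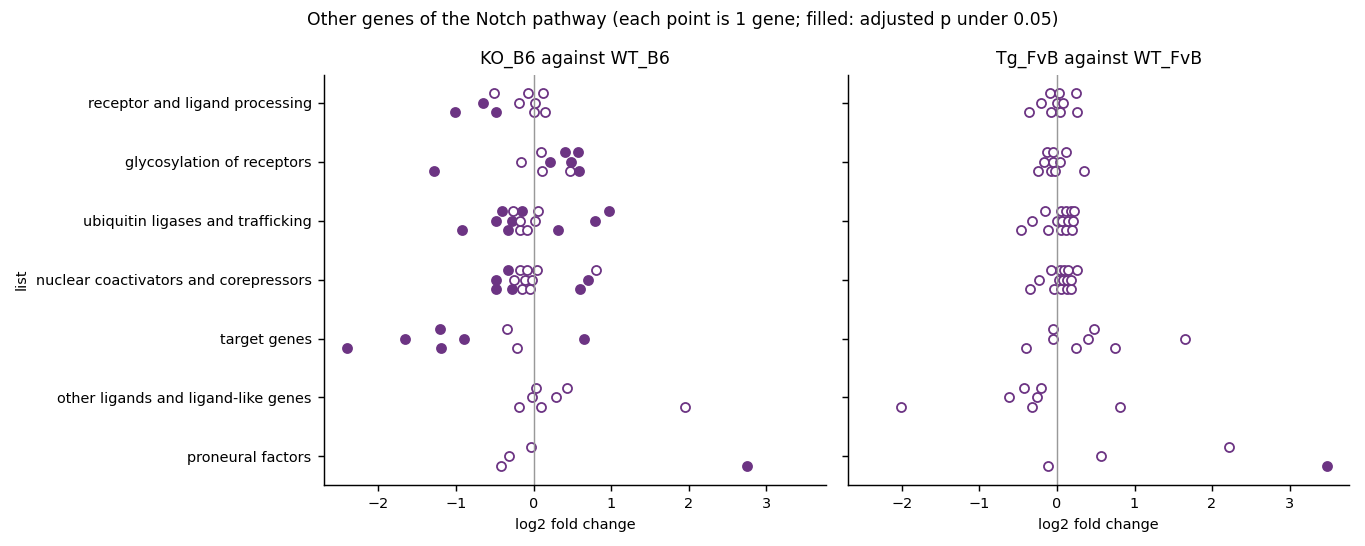
Log2 fold changes of 69 other Notch pathway genes by list in KO_B6 against WT_B6 (left) and Tg_FvB against WT_FvB (right); each point is 1 gene and filled points have an edgeR adjusted p under 0.05. On the left 31 points are filled, 12 above and 19 below 0, and on the right only Neurod1 is.

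Promoters were read for the word TGGGAA, the core of the element bound by RBPJ, in the 250 bases before each start site (RefSeq, GRCm38.p6). The word was sought on both strands, so that it also appears as TTCCCA. It occurred in 21.6% of 32851 windows of all genes. Among the members, 10 genes matched 12 windows, and 3 windows of 2 genes, Lfng and Rbpj, held it. The Rbpj windows that held it overlap, and 1 occurrence of the word lies in both. Among the target genes 5 of 8 matched, and 4 of those 5 windows held it: Hes5, Hey2, Hes7 and Fabp7. The longer word GTGGGAA, which contains the first, was in 5.42% of all windows. It was in the windows of Lfng, Hes5, Hey2 and Hes7, and not in those of Rbpj and Fabp7. Shown are the members with the word, Lfng (chr5:140607091-140607340, plus strand) and 1 start site of Rbpj (chr5:53590096-53590345, plus strand), and the targets Hes5 (chr4:154960673-154960922, plus strand) and Hey2 (chr10:30842784-30843033, minus strand), which were lower in KO_B6. Each runs 5′ to 3′ towards the start site, with the word in capitals.
Lfng: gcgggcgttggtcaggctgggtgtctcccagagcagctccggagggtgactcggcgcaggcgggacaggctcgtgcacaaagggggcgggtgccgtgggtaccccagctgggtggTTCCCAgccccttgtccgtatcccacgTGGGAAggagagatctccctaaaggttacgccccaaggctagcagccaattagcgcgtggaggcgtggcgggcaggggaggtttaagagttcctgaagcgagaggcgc
Rbpj: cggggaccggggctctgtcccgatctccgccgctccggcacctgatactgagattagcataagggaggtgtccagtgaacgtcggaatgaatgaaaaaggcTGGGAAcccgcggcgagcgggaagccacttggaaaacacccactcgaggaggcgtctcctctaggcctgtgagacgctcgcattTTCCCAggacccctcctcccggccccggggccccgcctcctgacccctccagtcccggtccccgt
Hes5: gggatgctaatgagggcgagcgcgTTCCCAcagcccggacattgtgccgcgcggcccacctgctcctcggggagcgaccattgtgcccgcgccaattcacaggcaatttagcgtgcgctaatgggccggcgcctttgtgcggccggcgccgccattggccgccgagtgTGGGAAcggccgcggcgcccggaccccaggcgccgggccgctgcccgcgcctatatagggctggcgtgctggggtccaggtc
Hey2: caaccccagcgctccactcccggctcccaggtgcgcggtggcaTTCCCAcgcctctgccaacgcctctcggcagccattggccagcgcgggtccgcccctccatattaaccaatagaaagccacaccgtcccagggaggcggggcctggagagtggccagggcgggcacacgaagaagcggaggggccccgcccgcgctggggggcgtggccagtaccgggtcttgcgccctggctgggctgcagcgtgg
The words in Lfng begin 135 and 108 bases before the start site, those in Rbpj 149 and 65, those in Hes5 226 and 82, and the one in Hey2 207. The 5 members called lower in KO_B6, Notch1, Notch2, Notch3, Dll1 and Dll3, did not hold these letters in their windows. A match is only a match of letters.

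Some markers of cell states were called between the groups as well. In the knockout comparison 45.8% of all genes tested were called, 24.8% higher and 20.9% lower. The 8 neural stem cell markers summed to 5573 to 5582 CPM in WT_B6 and 4903 to 5257 in KO_B6, where Nes was higher and Sox2, Vim, Pax6 and Hes5 were lower. The 5 astrocyte markers summed to 795 to 805 CPM in WT_B6 and 386 to 673 in KO_B6, where Gfap, Aqp4, S100b and Aldh1l1 were lower and none of the 5 was at 0. Of the 6 neuron markers, Snap25 was higher and Dcx and Tubb3 were lower in KO_B6, and the sums overlapped between the groups (1147 to 1157 and 1046 to 1168 CPM). Among the 8 oligodendrocyte lineage markers 1, Olig2, was higher and 3 were lower, Sox10 and Gpr17 among them. Their sums overlapped too, at 3108 to 3285 CPM in WT_B6 and 2889 to 3408 in KO_B6. In Tg_FvB the astrocyte markers Gfap, Aqp4 and S100b were lower than in WT_FvB, and Rbfox3, Sox10 and Gpr17 were higher. Of all genes tested 1.85% were called there. The part of these shifts in the members' values was not tested.

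Vascular cells also express Notch3, Notch4 and Jag1, so their markers are given too. The 6 endothelial markers together reached 1.42 to 1.51 CPM in WT_B6 and 1.79 to 2.20 in KO_B6, mostly from Kdr, and Cdh5 and Cldn5 were at 0 in every WT_B6 library. The 6 pericyte and smooth muscle markers summed to 7.70 to 8.07 CPM in WT_B6 and 9.42 to 16.6 in KO_B6, with Acta2 called higher, while Rgs5, Kcnj8 and Abcc9 were at or under 0.0523 CPM in these 2 groups. The part of vascular cells in the members' values was not tested. All 6 microglial markers were too low to test.

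For each member called in the knockout, the genes with the most similar profile over the 15 libraries were sought among 11149 genes of at least 5 CPM on average, by the root mean square difference of centred log2 CPM. Nearest to Notch1 were Tcf4 (0.0841), Chst3 (0.0933) and Nova2 (0.111), and to Notch2 Atrn (0.0720), Kif1b (0.0915) and Zfp369 (0.0924). For Notch3 they were Tmc7 (0.0799), Tom1l2 (0.0821) and Usp20 (0.0996), and for Dll1 Cacng7 (0.0676), Fuz (0.0830) and Boc (0.0846). Lfng, whose levels varied least, had Nfyc (0.0589), Rer1 (0.0652) and Fkbp2 (0.0755). For Dll3 they were 2610035D17Rik (0.180), Pde1c (0.183) and Fxyd6 (0.187), and for Jag1 Adamts1 (0.168), Myo19 (0.185) and Kcna3 (0.189). The difference is not scaled by a member's own spread. The SD of log2 CPM was 0.858 for Dll3 and 0.546 for Jag1, and from 0.187 (Lfng) to 0.420 (Dll1) for the others. The larger differences of Dll3 and Jag1 therefore do not show that their profiles were less well matched. All profiles share the same libraries and the split between backgrounds.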

How the data were processed

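Per the labels' protocols, libraries came from a TruSeq RNA kit (v2) and were read on a NextSeq500 as paired-end reads of 66 bases. The authors deposited raw counts per gene and, per the file headers, a gene length in bases; per the submitters' processing notes bcl2fastq, featureCounts and the build mm10 were used. The sources used here give no aligner, version or strand setting. Unnamed entries (917 per file, 0.450% to 0.545% of counts) were left out.

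The counts were tested with edgeR 4.0.16 (R 4.3.3): 1 quasi-likelihood model over all 15 libraries, TMM scaling, filterByExpr with a minimum count of 10 (15261 genes kept, 11002 removed) and Benjamini-Hochberg adjustment over all genes, called under 0.05. Standard errors were derived from the F statistic. DESeq2 1.42.0 was an alternative, beside RLE scaling, no filter, only the groups compared, litter as covariate, replicate block, near-identical libraries summed (BCV under 0.05), Tg_FvB replicates 5 and 6 left out, and each library left out. CPM carries the TMM factors. The scripts were tested on simulated data.

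The 10 members and all lists were chosen with earlier results of these data known. Named were all members, of each pathway list up to 4 genes called in KO_B6 and up to 2 called in Tg_FvB by highest mean CPM, the 3 nearest profiles of each called member, and Kat6b. Others are marked as named after their values were seen, and called markers were named in that way too. Results of some genes are not reported here.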

Additional observations from a re-analysis of the deposited data

Results flagged for a closer look

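In 4 cases 1 library stood far from the others of its group, by Dixon's 95% criterion. Chance alone meets it in about 1 of 20 groups of separate samples. The 22 groups examined were the members and Kat6b in KO_B6 and in Tg_FvB, so they share the same libraries. Near-identical libraries lie within both, so that rate does not hold here. Tg_FvB replicate 5 had 296 CPM of Notch1, 245 CPM of Notch3 and 89.7 CPM of Rbpj, each the highest of the 6 transgenic libraries. That library is 1 of the 2 whose count column is headed as a wild type, and it had the least Kat6b of the transgenic libraries at 139.6 CPM. Both WT_FvB libraries had less Kat6b, at 54.4 and 51.9 CPM. Replicate 6, the other library with such a header, had the most at 288.9 CPM. KO_B6 replicate 1 had 40.2 CPM of Notch2, the lowest of the 4 knockout libraries. The reason for these values was not tested.

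For 5 genes the effect of the knockout differed from that of the transgene in the edgeR model. On the log2 scale the difference, knockout minus transgene, was -1.91 for Dll3, -0.957 for Notch3, -0.866 for Dll1, -0.575 for Notch2 and 1.22 for Jag1. None of these 5 was called in Tg_FvB against WT_FvB alone.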

How the results depend on the processing

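In the knockout comparison 7 of the 10 members were called, and 6 to 8 when each library was left out in turn. Summing near-identical libraries left 0 of them called, and 0 of the 31 other pathway genes called (28 to 37 with each library left out). No member changed direction in the knockout comparison in any of 230 recomputed values. For the transgene, members called numbered 0, and 0 to 1 with each library left out, the 1 being Dll3 without Tg_FvB replicate 4. The 1 pathway gene called there became 0 with only the groups compared, with litter as covariate or with libraries summed, 5 without Tg_FvB replicates 5 and 6, and 0 to 7 with each library left out. For the difference of the 2 effects, 5 became 3 with litter and 0 summed (5 to 6 leaving libraries out), and for the 2 wild types 6 became 9 with only the groups compared, 1 with litter and 0 summed (5 to 6). The difference was called for 5695 genes in all, against 2862 with litter and 0 summed. The wild-type comparison called 7456 genes in all, against 10350 with only the groups compared, 1563 with litter and 0 summed. Over all genes the transgene comparison called 283, against 10 with litter or with only the groups compared, 0 summed, 722 by DESeq2, 638 without Tg_FvB replicates 5 and 6, 1763 without Tg_FvB replicate 4 and 2 without either WT_FvB library; the knockout comparison called 6982, against 5 summed.

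Some values changed sign, and none of those was called before or after the change. In the transgene comparison Notch2 (log2 fold change -0.01) was 0.00603 with litter, 0.0437 without Tg_FvB replicates 5 and 6, and -0.0487 to 0.0238 leaving libraries out. Without those 2 replicates Dll1 (0.20) was -0.0259 and Rbpj (0.12) -0.0085. Jag2 (-0.02) was 0.000763 with litter, 0.0672 summed and -0.557 to 0.852 leaving libraries out, the highest without WT_FvB replicate 2, and it ran from -0.323 to 1.09 in the difference of effects and from -0.680 to 0.729 between the wild types.

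Whether replicate numbers pair the libraries was not settled. Deviations of same-numbered libraries correlated at -0.0199 to 0.135, and those of differently numbered libraries at -0.135 to 0.0637. The WT_B6 libraries were near-identical, and deviations of only 2 WT_FvB libraries mirror each other, so this check cannot exclude pairing. With the replicate block the transgene comparison called 1 member, Dll3, 7 other pathway genes and 1577 genes in all. Notch2 was 0.00584 there, and Lfng between the wild types (-0.10) was 0.134. Replicates and litters were nested within background, so wild-type contrasts from the block and litter fits depend on the coding. Why the counts of calls moved otherwise was not tested. Notch4 and Jag2, at 8 to 79 counts per library for Jag2, are limited by depth.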
